A study of Mus musculus with 29 samples.

Results

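Complement is the protein cascade by which tagged material is opsonized and cleared, and 9 of its genes were followed here in RNA-seq counts after inhibition of the microRNA miR-99b-5p: the chains of the C1q recognition molecule (C1qa, C1qb, C1qc), the central and linking components C3 and C4b, the anaphylatoxin receptors C3ar1 and C5ar1, and the chains of complement receptor 3 (Itgam, Itgb2). The genes were chosen by symbol, each symbol was mapped to its Ensembl identifier, and all 9 were found among the 48709 identifiers of each of the 3 count tables. The 29 libraries came from 3 experiments in which anti-miR-99b, a locked nucleic acid (LNA) inhibitor of miR-99b-5p, was compared with sc-control, a scrambled LNA. The question asked of each experiment is whether complement RNA changed once miR-99b-5p was inhibited, and at what level the genes were expressed without inhibition.

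The prefrontal cortex (PFC) libraries were from male C57BL/6J mice aged 3 months injected stereotaxically with lipid nanoparticles that carried the inhibitor in 3 mice and the scrambled LNA in 3 others, so that every mouse, the controls included, had undergone surgery and nanoparticle delivery. The microglia libraries were from primary cultures of CD1 pups at postnatal day 1, grown with L929-conditioned medium, with 4 libraries after treatment with the inhibitor and 4 after the scrambled LNA. The co-culture libraries held cortical neurons of CD1 embryos (embryonic day 17.5) together with primary microglia of pups at postnatal day 1. These microglia carried the inhibitor in 7 libraries and the scrambled LNA in 8. No source says which culture libraries came from separate preparations, so their p-values measure the spread between libraries only.

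In the classical pathway, C1q binds to immune complexes, dying cells or synapses, C4 and C2 are then cleaved, and the convertase they form deposits C3 fragments on the surface. Complement receptor 3, the integrin of the CD11b (Itgam) and CD18 (Itgb2) chains, recognizes such fragments and triggers engulfment, while the released peptides C3a and C5a act on the G protein-coupled receptors C3ar1 and C5ar1. In the brain C1q is made mainly by microglia, C4b largely by astrocytes and oligodendrocytes, and C1q, C3 and complement receptor 3 are known for their part in synapse elimination by microglia.

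The sequence of the inhibited microRNA is given because every comparison turns on it. Mature mouse miR-99b-5p is 22 bases long, lies at chr17:17830194-17830215 on the plus strand (RefSeq, GRCm38.p6), and its seed, bases 2 to 8, is in capitals. The other family members listed by RefSeq with the same seed, miR-99a-5p and miR-100-5p, are shown for comparison.
miR-99b-5p: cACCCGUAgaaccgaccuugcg
miR-99a-5p: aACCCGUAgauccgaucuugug
miR-100-5p: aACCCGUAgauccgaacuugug
None of the 9 genes had the site complementary to this seed (TACGGGT) in the 3′ UTR of an annotated coding transcript, and 0 of 9 had the shorter site for bases 2 to 7 (ACGGGT). Among all 21901 coding genes of GENCODE M21 the longer site was in the 3′ UTR of 1.14% and the shorter one in 5.59%. The mature microRNA was not analysed here.

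RefSeq promoters, 250 bases before to 50 after the start of the gene, were matched for 6 of the 9 genes. The promoters of the 4 matched genes that rose in the co-cultures are shown, each 5′ to 3′ on the gene's own strand, which is the minus strand for all 4. Capitals mark matches, on either strand, to 6 motifs of factors active in macrophages: ISRE (GAAA and GAAA with 2 bases between them), the ETS and IRF composite (GGAA and GAAA with 2 bases between them), PU.1 (GAGGAAGT), C/EBP (TTGCNNAA), AP-1 (TGANTCA) and NF-kB (GGGA and CC with 4 bases between them).
C1qb, chr4:136886151-136886450: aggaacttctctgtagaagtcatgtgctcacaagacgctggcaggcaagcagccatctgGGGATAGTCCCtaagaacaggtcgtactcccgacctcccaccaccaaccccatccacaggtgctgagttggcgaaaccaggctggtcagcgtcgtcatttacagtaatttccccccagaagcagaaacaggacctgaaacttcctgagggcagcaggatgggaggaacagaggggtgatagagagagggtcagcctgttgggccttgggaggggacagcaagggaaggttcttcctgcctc
C1qc, chr4:136892865-136893164: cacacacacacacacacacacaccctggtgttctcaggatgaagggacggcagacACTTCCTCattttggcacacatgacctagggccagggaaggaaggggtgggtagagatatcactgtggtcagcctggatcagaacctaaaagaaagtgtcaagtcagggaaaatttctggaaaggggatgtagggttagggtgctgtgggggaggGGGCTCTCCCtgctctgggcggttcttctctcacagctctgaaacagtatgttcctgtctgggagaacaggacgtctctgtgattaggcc
C3ar1, chr6:122856108-122856407: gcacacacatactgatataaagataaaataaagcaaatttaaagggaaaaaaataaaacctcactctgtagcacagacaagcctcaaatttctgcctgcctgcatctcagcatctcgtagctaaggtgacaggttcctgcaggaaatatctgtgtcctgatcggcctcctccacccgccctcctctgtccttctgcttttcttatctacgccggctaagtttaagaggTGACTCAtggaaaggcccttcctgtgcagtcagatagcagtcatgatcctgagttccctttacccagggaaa
C5ar1, chr7:16259289-16259588: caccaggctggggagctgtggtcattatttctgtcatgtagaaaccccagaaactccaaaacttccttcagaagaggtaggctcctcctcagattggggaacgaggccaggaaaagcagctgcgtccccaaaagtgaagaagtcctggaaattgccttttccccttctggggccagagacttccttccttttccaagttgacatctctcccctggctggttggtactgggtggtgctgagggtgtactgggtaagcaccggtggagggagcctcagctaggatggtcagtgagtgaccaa
No motif was common to the promoters of all 4 genes. C1qb held an NF-kB match on both strands, which overlap each other, C1qc held a PU.1 and an NF-kB match, C3ar1 held an AP-1 match close to its start, and C5ar1 held none of the 6. Of the promoters of C3 and Itgam, which are not printed, C3 held C/EBP once and NF-kB 3 times and Itgam held none. Among all 32851 mouse promoters of the same length, NF-kB was in 20.7%, C/EBP in 10.8%, AP-1 in 7.81%, ISRE in 3.44%, PU.1 in 3.2% and the composite in 2.72%. A match describes letters only and is not evidence of binding.

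Between 21324156 and 37901110 reads were counted on genes per library. Levels are given as CPM, the reads of a gene scaled to a common library size with edgeR's TMM factors. The cell types named in the labels were checked against marker lists. The microglia cultures held 14276 to 14978 CPM summed over 16 microglia markers, against 130 to 145 CPM for 10 neuron markers and 249 to 295 CPM for 7 astrocyte markers. The co-cultures held 8073 to 8390 CPM of the neuron markers and 156 to 196 CPM of the microglia markers, of which 5 (P2ry12, Tmem119, Siglech, Gpr34 and P2ry13) averaged under 1 CPM, and they also held 2274 to 2465 CPM of the astrocyte markers, a cell type the labels do not name. In the PFC the microglia markers summed to 629 to 896 CPM. The counts of C4b and Itgam are limited by the annotation: 35.2% of the 50-base windows of the C4b transcript also occur in its paralog C4a, and 72.4% of those of Itgam also occur in the overlapping gene model Gm49368 on the same strand, which averaged at most 0.0494 CPM in any group.

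Complement genes rose after inhibition of miR-99b-5p in the co-cultures, where 5 of 9 passed the threshold, whereas 0 of 9 passed it in the PFC and 0 of 9 in the microglia cultures. All 9 log2 fold changes were above 0 in the PFC and in the microglia and 5 of 9 in the co-cultures, beside 50.6%, 51.6% and 51.6% of all genes tested. Of the microglia markers tested, 14 of 16 were above 0 in the PFC, 11 of 15 in the microglia and 14 of 15 in the co-cultures. The threshold was an adjusted p under 0.05 with a log2 fold change (log2FC) beyond 0.1 in the co-cultures, an adjusted p under 0.1 with a log2FC beyond 0.2 in the PFC, and an adjusted p under 0.1 with a log2FC beyond 0.1 in the microglia, by edgeR's quasi-likelihood test with Benjamini-Hochberg adjustment over all genes tested. In the co-cultures 0.846% of the 16193 genes tested were called higher and 0.556% lower, 1.4% in all. In the PFC 0.0864% of 17364 genes were called in either direction (0.0864% higher, 0% lower), and in the microglia 0.488% of 14953 (0.435% higher, 0.0535% lower). At an unadjusted p under 0.05 there were 1326 genes in the PFC and 964 in the microglia. The median log2FC of the 9 genes was 0.44 (PFC), 0.032 (microglia) and 0.25 (co-cultures), beside a median over all genes tested of 0.00 in each.

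**Figure D1:**
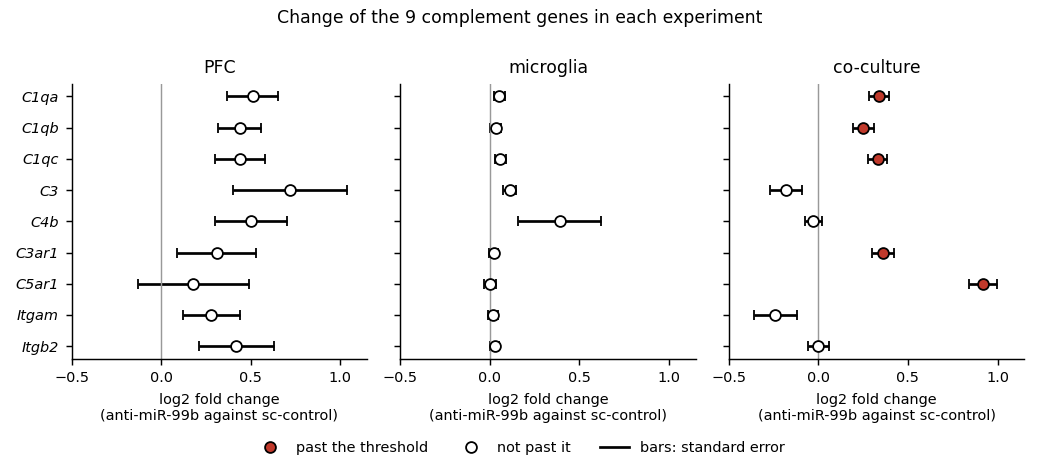
Log2 fold change of each of the 9 genes (vertical axis), anti-miR-99b against sc-control, with its standard error (bars), for each experiment; filled points passed the threshold. Only the co-cultures have filled points (C1qa, C1qb, C1qc, C3ar1, C5ar1), the PFC estimates are all above 0 with wide bars, and 8 of the 9 microglia estimates lie between 0.0016 and 0.11.

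In the co-cultures the C1q genes, which encode the A, B and C chains of the recognition subunit and lie side by side on chromosome 4, rose 1.19-fold to 1.27-fold. C1qa had 28.3, 32.6 and 36.5 CPM (lowest, median, highest of 8) in sc-control and 37.1, 40.7 and 46 CPM (of 7) in anti-miR-99b. All 7 treated libraries lay above all 8 controls. C1qa was 1.27-fold higher (log2FC 0.34, SE 0.055, edgeR adjusted p = 0.00106).

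C1qc behaved alike, with 24.9, 28.4 and 32.4 CPM in sc-control and 33.4, 35.4 and 38.9 CPM in anti-miR-99b. Again no treated library overlapped the controls. The increase was 1.26-fold (log2FC 0.33, SE 0.052, edgeR adjusted p = 0.000769). C1qb had 21.2, 25.5 and 28.2 CPM in sc-control and 26, 29.5 and 32.7 CPM in anti-miR-99b, so that the groups overlapped through 1 treated library, replicate 5. Its increase was 1.19-fold (log2FC 0.25, SE 0.059, edgeR adjusted p = 0.0309). With the sequencing lane as a block C1qb fell short of the threshold (log2FC 0.22, edgeR adjusted p = 0.087, where 0.747% of all genes were called), although it was higher in the treated libraries within each of the 4 lanes, by 0.10 to 0.35 on the log2 scale. It also fell short without treated replicate 3, 10 or 11 or control replicate 4, 6, 8 or 12, with a log2FC of 0.22 to 0.28 over the 15 libraries left out in turn. Within lanes, C1qa was higher by 0.17 to 0.44 and C1qc by 0.17 to 0.40.

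The anaphylatoxin receptors rose too, and C5ar1, the receptor for C5a, had the largest change of the 9 genes. C5ar1 had 2.54, 3 and 3.45 CPM in sc-control, from 67 to 129 reads, and 5.19, 5.78 and 6.25 CPM in anti-miR-99b, from 122 to 188 reads. Every treated library lay above every control. The increase was 1.89-fold (log2FC 0.92, SE 0.077, edgeR adjusted p = 1.05e-07), the exact permutation test over libraries gave p = 0.000155, the smallest it can give (two-sided), and within the 4 lanes the difference ran from 0.69 to 0.92. C3ar1, the receptor for C3a, had 18.3, 20 and 24.1 CPM in sc-control and 22.9, 26.7 and 31.1 CPM in anti-miR-99b. Treated replicate 12 lay among the controls and the other 6 treated libraries above them. The increase was 1.28-fold (log2FC 0.36, SE 0.063, edgeR adjusted p = 0.00286). Of the 9 genes, C1qa, C1qc and C5ar1 had every treated library above every control, as did 0.303% of all genes tested.

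The other 4 genes did not pass the threshold in the co-cultures. C3, the component on which all activation pathways meet, had 40.7, 48 and 61.6 CPM in sc-control and 39.7, 42.1 and 61.2 CPM in anti-miR-99b (log2FC -0.18, SE 0.088, edgeR adjusted p = 0.396). Of the treated libraries, 6 had 39.7 to 46.2 CPM and replicate 10 had 61.2 CPM. C4b, which follows C1q in the classical pathway, had 20.5, 23.6 and 24.3 CPM in sc-control and 19.9, 22.1 and 24.6 CPM in anti-miR-99b (log2FC -0.029, SE 0.047, edgeR adjusted p = 0.852).

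The chains of complement receptor 3 were Itgam, with 4.32, 4.72 and 5.63 CPM in sc-control and 2.98, 3.68 and 5.91 CPM in anti-miR-99b (log2FC -0.24, SE 0.12, edgeR adjusted p = 0.385), and Itgb2, with 8.37, 9.4 and 11.1 CPM against 9.19, 9.52 and 11 CPM (fold 1.00, SE of the log2FC 0.057, edgeR adjusted p = 1). The treated libraries of Itgam spread over both sides of the controls: replicates 2, 3, 5 and 12 lay below every control and replicate 10 above every control. Within lanes its difference was -0.61 and -0.54 in lanes 4 and 5, and 0.23 and -0.0061 in lanes 6 and 7.

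**Figure D2:**
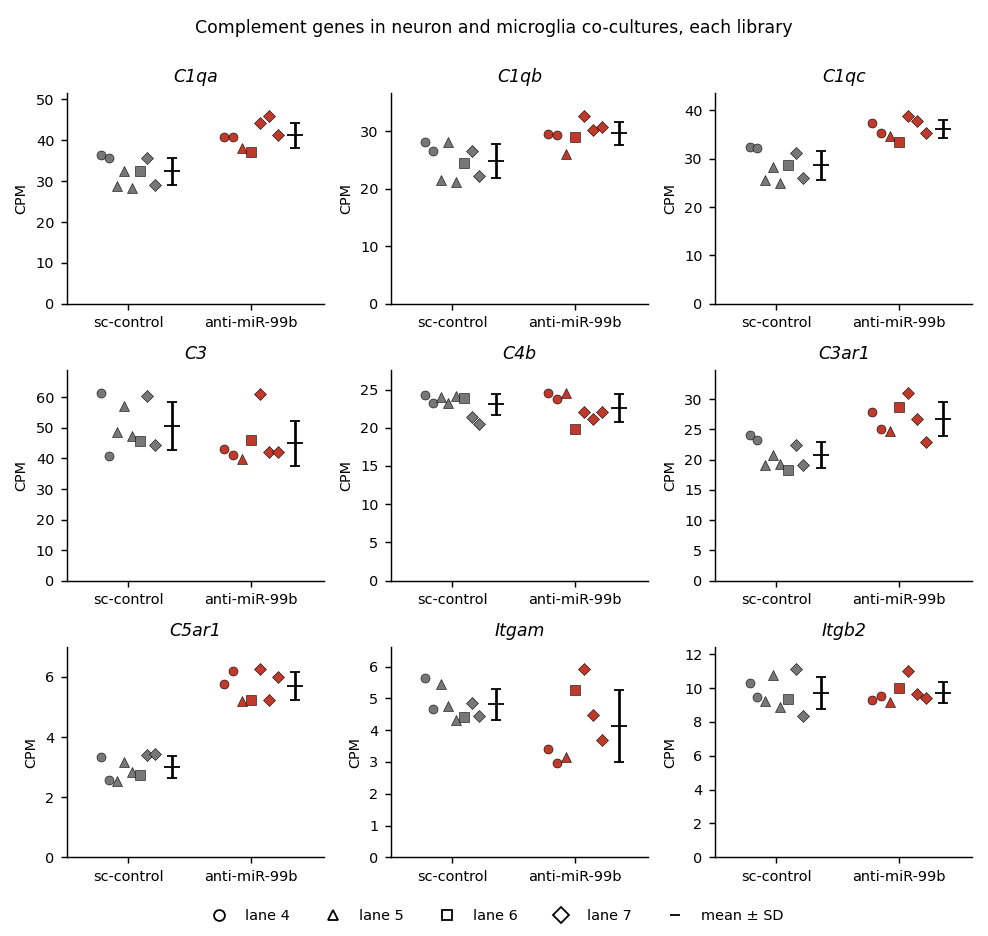
Level in CPM (vertical axis, from 0) of each of the 9 genes in the 8 sc-control and 7 anti-miR-99b co-culture libraries; each point is 1 library, its shape gives the sequencing lane, and the bar is mean ± SD. C1qa, C1qc and C5ar1 have all treated points above all controls, C5ar1 with the widest gap, and C3, C4b, Itgam and Itgb2 overlap.

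The microglia markers of the co-cultures rose along with these genes. Of 16 markers, 15 could be tested and 7 passed the threshold, all upward, among them the colony-stimulating factor receptor Csf1r (log2FC 0.34, adjusted p = 0.00101), the lysosomal glycoprotein Cd68 (log2FC 0.43, adjusted p = 3.01e-05) and the receptor Trem2 (log2FC 0.70, adjusted p = 0.00113) by edgeR. Aif1 (log2FC 0.12, edgeR adjusted p = 0.445) and Fcrls (log2FC 0.043, edgeR adjusted p = 0.771) were among those that did not pass. Of the 15, 14 had a log2FC above 0, and Sall1 was lower (log2FC -0.10, edgeR adjusted p = 0.143). Sall1 had 29.3 CPM in the control co-cultures and 37.6 CPM in the control microglia cultures, where Csf1r had 9.15 and 3245 CPM. Sall1 counts in the marker sum and mean, and the source of its RNA in the co-cultures was not tested. The summed marker level was 156 to 183 CPM in sc-control and 174 to 196 CPM in anti-miR-99b. The summed level of border macrophage markers was 9.91 to 13.6 CPM in sc-control and 13.7 to 17 CPM in anti-miR-99b, without overlap. Of the 5, 4 averaged under 1 CPM and 3 could be tested. Of these 3, 1 passed the threshold, upward, beside 0.846% of all genes called higher. The part of these markers in the result was not tested. In bulk RNA a change in the number of microglia and a change of RNA per cell cannot be told apart.

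Set against the mean log2 level of the 16 markers, C1q (the mean of its 3 chains) was 0.083 higher in anti-miR-99b, with 2.49 ± 0.093 (SD, n = 8) in sc-control and 2.57 ± 0.083 (SD, n = 7) in anti-miR-99b. These ranges overlapped, and with medians in place of means the difference was -0.032. On the same scale the C1q level itself differed by 0.31 and the marker level by 0.23. C5ar1 relative to the markers remained without overlap, at -0.81 to -0.30 in sc-control and -0.13 to 0.15 in anti-miR-99b, a difference of 0.60. The share of all genes without overlap (0.303%) was taken on CPM and not on this scale. C3ar1 differed by 0.13, C4b by -0.26, C3 by -0.40, Itgb2 by -0.22 and Itgam by -0.46, and each of these overlapped. The marker level itself separated the groups completely (2.36 ± 0.10 in sc-control, 2.59 ± 0.041 in anti-miR-99b, SD), and with it as a covariate, an analysis chosen after seeing the data, 0 of the 16193 genes (0%) passed the threshold by edgeR (479 at an unadjusted p under 0.05). In that fit the log2FC was 0.80 for C5ar1 (SE 0.15, edgeR adjusted p = 0.172), 0.10 for C1qa, 0.11 for C1qc, -0.085 for C1qb and 0.014 for C3ar1. The marker level and the treatment cannot be told apart by this covariate.

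**Figure D3:**
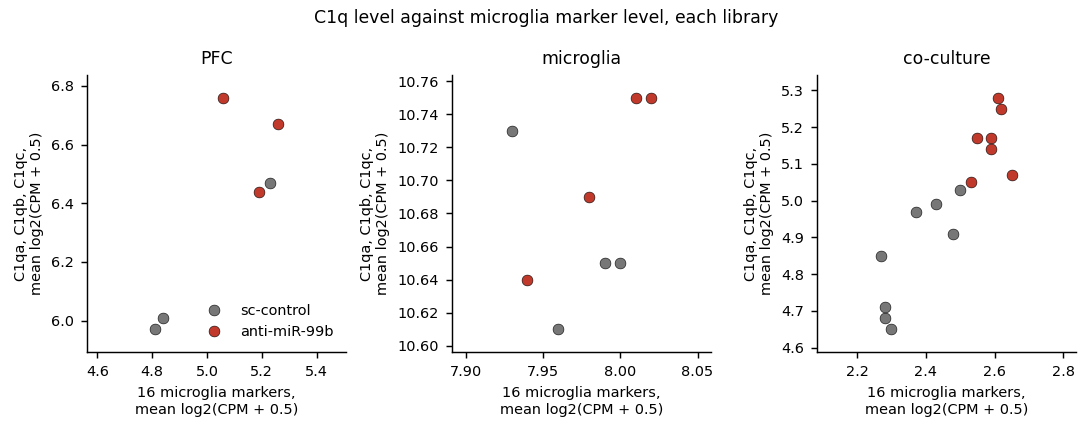
Mean log2(CPM + 0.5) of C1qa, C1qb and C1qc (vertical axis) against that of 16 microglia markers (horizontal axis) in every library of the 3 experiments, with both axes of a panel spanning the same number of log2 units. In the co-cultures the treated points lie above and to the right of all controls, and in the PFC 1 of the 3 controls lies among the treated libraries.

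Whether a gene changed differently in 2 experiments was tested by an interaction term in a joint fit of all 29 libraries. Of the 27 pairs of gene and contrast, 1 passed an adjusted p under 0.05. The log2FC of C5ar1 was 0.90 lower in the microglia cultures than in the co-cultures (SE 0.10, edgeR adjusted p = 2.87e-06), a contrast in which 0.0844% of 18963 genes were called. C5ar1 was at 426 to 487 CPM in the control microglia cultures and at 437 to 454 CPM in the treated ones, with a log2FC of 0.0016 (SE 0.034). Between the co-cultures and the PFC, where 0.791% of genes were called, the smallest adjusted p were those of C4b (difference -0.53, SE 0.15, edgeR adjusted p = 0.0821) and C3 (difference -0.90, SE 0.26, edgeR adjusted p = 0.0879). Between the microglia and the PFC, where 0.469% of genes were called, C1qa came nearest (difference -0.44, SE 0.12, edgeR adjusted p = 0.102). For the other genes no difference between experiments was shown. The joint fit used 1 shared estimate of the spread per gene for all 6 groups, although the spread differed between experiments. Fitted alone, the SE of C1qa was 0.03 in the microglia, 0.055 in the co-cultures and 0.14 in the PFC. In the joint fit the SE of its difference between the microglia and the co-cultures was 0.10. The absence of a call therefore does not show that a gene changed alike in 2 experiments.

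In the PFC the mean of every one of the 9 genes was higher in anti-miR-99b, beside a log2FC above 0 in 50.6% of all genes tested. Of the 16 microglia markers, 14 also had a log2FC above 0 in the PFC, with a median of 0.22, and 0 passed the threshold. C1qa had 64.7, 64.7 and 89.5 CPM in sc-control replicates 2, 3 and 4 and 117, 106 and 89.2 CPM in anti-miR-99b replicates 1, 2 and 3 (log2FC 0.51, SE 0.14, edgeR adjusted p = 0.382). C1qb had 71.6, 69.1 and 96.8 CPM in the same controls and 113, 113 and 97.5 CPM in the treated mice (log2FC 0.44, SE 0.12, edgeR adjusted p = 0.424). C1qb was the 1 gene of the 9 without overlap (96.8 CPM in the highest control, 97.5 CPM in the lowest treated mouse), and 7.52% of all genes tested had every treated mouse above every control. C1qc had 56.5, 54 and 79.4 CPM against 95.7, 87.7 and 74.4 CPM (log2FC 0.44, SE 0.14, edgeR adjusted p = 0.584).

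C3 and C4b also had higher means in the treated mice, with groups that overlapped. C3 had 3.18, 6.17 and 9.09 CPM in sc-control and 11.4, 12.2 and 6.94 CPM in anti-miR-99b (log2FC 0.72, SE 0.32, edgeR adjusted p = 0.649). C4b had 46.1, 56.4 and 92.3 CPM in sc-control and 94.5, 93.2 and 87.6 CPM in anti-miR-99b (log2FC 0.50, SE 0.20, edgeR adjusted p = 0.648). In both, control replicate 4 exceeded treated replicate 3.

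The groups of all 4 receptor genes overlapped. Itgb2 had 8.38, 9.34 and 15.1 CPM against 16.3, 15.5 and 12.1 CPM (log2FC 0.42, SE 0.21, edgeR adjusted p = 0.66), and Itgam 7.65, 7.29 and 10.5 CPM against 8.62, 12 and 10.3 CPM (log2FC 0.28, SE 0.16, edgeR adjusted p = 0.682). C3ar1 had 3.83, 3.52 and 6.76 CPM against 5.88, 6.25 and 5.46 CPM (log2FC 0.31, SE 0.22, edgeR adjusted p = 0.72). C5ar1 rested on 20 to 59 reads per library, with 0.866, 0.705 and 1.72 CPM against 1.39, 1.18 and 1.22 CPM (log2FC 0.18, SE 0.31, edgeR adjusted p = 0.893).

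Control replicate 4 was the highest of the 3 controls for all 9 genes. It had been sequenced in lane 7 with treated replicate 3, and the other 4 mice in lane 6. Within lane 6 the treated mice had 1.72 times the controls' level for C1qa, 1.61 times for C1qb, 1.66 times for C1qc, 2.52 times for C3 and 1.83 times for C4b. Within lane 7, with 1 mouse against 1, the ratios were 1.00, 1.01, 0.94, 0.76 and 0.95. Without control replicate 4, 6 of the 9 genes passed the threshold (C1qa, C1qb, C1qc, C4b, C3ar1 and Itgb2), where 1.14% of all genes tested did, with C1qa at a log2FC of 0.68 (edgeR adjusted p = 0.0296) and C4b at 0.84 (edgeR adjusted p = 0.00805). The labels give no reason to set this mouse aside. Leaving out other single mice also moved the estimates, though none of the 9 genes then passed. Without control replicate 2 the log2FC was 0.40 for C3, 0.30 for C4b, 0.18 for C3ar1 and 0.25 for Itgb2. Without control replicate 3 the log2FC was 0.15 for C3ar1, and without treated replicate 2 it was 0.15 for Itgam. That of C5ar1 ran from -0.032 to 0.66, and those of the C1q chains stayed between 0.34 and 0.68. The microglia marker level of control replicate 4 (5.23) also lay within the range of the treated mice (5.06 to 5.26). It was above the other controls (4.81 and 4.84), and the part of this in the result was not tested. Relative to the markers, C1q was 1.17, 1.17 and 1.24 in the controls and 1.26 to 1.70 in the treated mice, a difference of 0.27 without overlap. This difference was 0.14 without treated replicate 1 and 0.25 to 0.37 without any other single mouse. Taken singly on this scale, C1qa and C1qb did not overlap, and C1qc, C3, C4b and the 4 receptor genes did. The share of all genes without overlap (7.52%) was taken on CPM and not on this scale. No share therefore stands beside the separation of C1q, C1qa and C1qb relative to the markers, and on CPM C1qa overlapped.

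Among the markers of other cell types in the PFC, none passed the threshold. Of 6 neutrophil and monocyte markers, 5 averaged under 1 CPM, and their summed level was 2.11 to 4.49 CPM in sc-control and 3.35 to 4.82 CPM in anti-miR-99b. All 4 that could be tested had a log2FC above 0, with a median of 0.59. The 5 fibroblast and leptomeninges markers summed to 70.2 to 86.7 CPM in sc-control and 86.9 to 90.6 CPM in anti-miR-99b, without overlap, with a median log2FC of 0.10. Of 10 neuron markers, 1 had a log2FC above 0, and they summed to 9521 to 10163 CPM in sc-control and 9346 to 9524 CPM in anti-miR-99b. The part of these markers in the complement result was not tested.

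**Figure D4:**
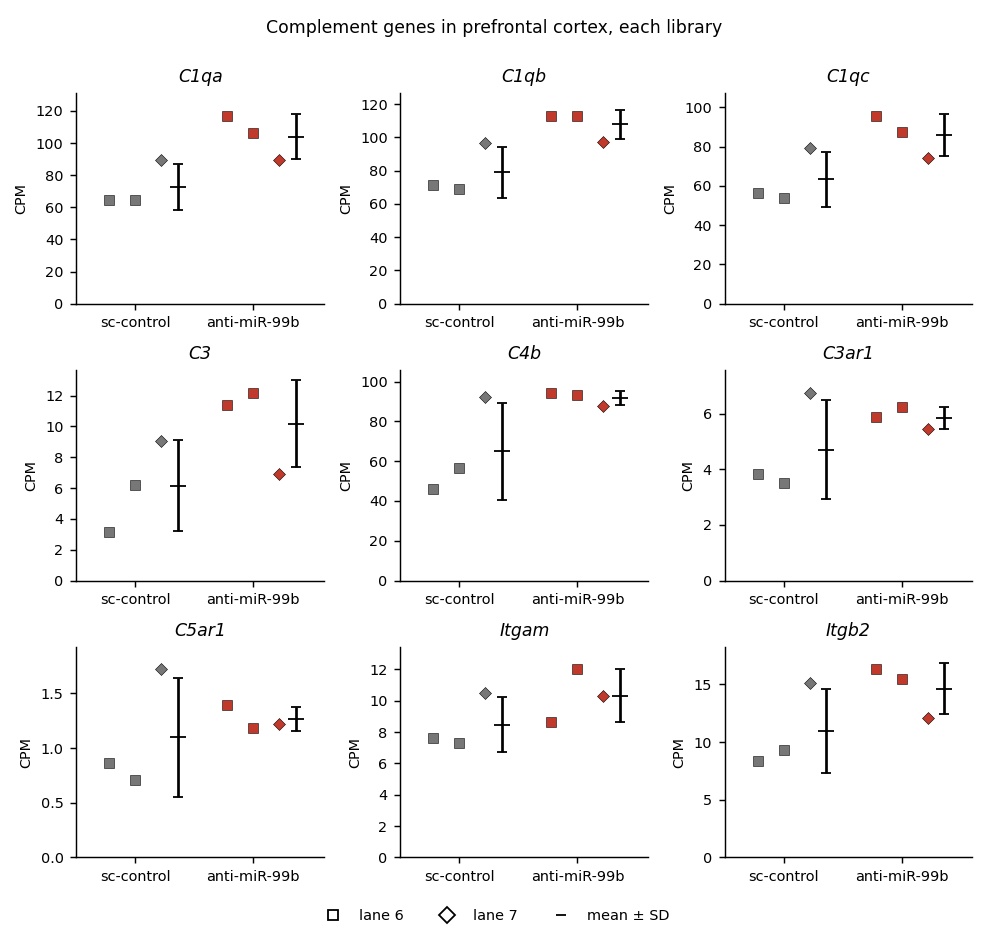
Level in CPM (vertical axis, from 0) of each of the 9 genes in the 3 sc-control and 3 anti-miR-99b PFC libraries, ordered by replicate number; the shape gives the lane and the bar is mean ± SD. The control in lane 7 is the highest control in all 9 panels and lies within or near the treated group.

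In the microglia cultures, where complement RNA was abundant and the libraries varied little, no gene passed the threshold. C1qa had 1844, 1732, 1777 and 1794 CPM in sc-control replicates 2, 3, 4 and 6 and 1755, 1913, 1890 and 1858 CPM in anti-miR-99b replicates 1, 3, 4 and 5 (log2FC 0.053, SE 0.03, edgeR adjusted p = 0.844). Of the 4, 3 treated libraries exceeded all controls and replicate 1 lay within them. C1qb (log2FC 0.032, SE 0.033) and C1qc (log2FC 0.059, SE 0.031) had edgeR adjusted p of 0.938 and 0.809. C3 came nearest to the threshold, with 195, 177, 177 and 172 CPM in sc-control and 203, 190, 189 and 196 CPM in anti-miR-99b (log2FC 0.11, SE 0.035, edgeR adjusted p = 0.362). The 3 controls other than replicate 2 lay below all treated libraries, and without control replicate 2 the log2FC of C3 was 0.15 with an edgeR adjusted p of 0.0028, where 2.7% of all genes were called.

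The receptors differed by less than 0.03 on the log2 scale in these cultures: C3ar1 by 0.022 (SE 0.026), Itgb2 by 0.027 (SE 0.025), Itgam by 0.018 (SE 0.026) and C5ar1 by 0.0016 (SE 0.034). C4b was barely detected, at 15 to 36 reads per library, with a log2FC of 0.39 (SE 0.23, edgeR adjusted p = 0.862). Of the 9 genes, 0 had groups without overlap in the higher direction, beside 1.65% of all genes tested.

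The baseline level was read from the sc-control libraries as TPM, transcript abundance scaled by the exon length of GENCODE M21 and by library size, so that genes can be compared. In the microglia cultures the order was C1qa (5867 ± 87.4 TPM, SD, n = 4), C1qb (4426 ± 128), C1qc (2967 ± 74.3), C3ar1 (866 ± 18.4), Itgb2 (636 ± 8.23), C5ar1 (593 ± 28.6), Itgam (178 ± 3.02), C3 (120 ± 5.05) and C4b (0.455 ± 0.0921). Only Itgb2 and C5ar1 overlapped as neighbours in this order. C1qc, the lowest of the C1q chains, was at percentile 99.9 of all genes by mean TPM.

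In the co-cultures the order began alike, with C1qa at 127 ± 13.1 TPM (SD, n = 8), C1qb at 93 ± 10.8 and C1qc at 60.3 ± 6.29, but C3 came next at 40.1 ± 6.2, before C3ar1 (19.6 ± 2.04), C4b (16.5 ± 0.981), Itgb2 (12.9 ± 1.27), C5ar1 (4.75 ± 0.595) and Itgam (3.9 ± 0.387). The ranges of C4b and Itgb2, and of C5ar1 and Itgam, overlapped. In the PFC C1qb (289 ± 54.7 TPM, SD, n = 3) and C1qa (279 ± 53.9) overlapped at the top, followed by C1qc (130 ± 28.1), C4b (45.3 ± 16.9), Itgb2 (14.2 ± 4.72), Itgam (6.71 ± 1.37), C3 (4.76 ± 2.3), C3ar1 (4.33 ± 1.62) and C5ar1 (1.69 ± 0.831). Itgam, C3 and C3ar1 overlapped each with its neighbour. The exon length of C1qc (1931 bases) includes exons outside its coding transcript (1203 bases), which lowers its TPM. The TPM of C4b and Itgam carries the annotation limit given above for their counts, so their places in these orders are uncertain.

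The C1q chains led in all 3 experiments, and the order of the other genes differed. Expressed as a percentage of the control microglia cultures' CPM, the co-cultures held 1.81% for C1qa, 1.76% for C1qb, 1.71% for C1qc, 1.91% for C3ar1, 1.84% for Itgam and 1.7% for Itgb2, but 0.673% for C5ar1, 28.2% for C3 and 3042% for C4b. In the PFC the same measure was 3.77% to 5.61% for the C1q chains, 3.41% for C3, 1.93% for Itgb2, 0.431% for C3ar1, 0.246% for C5ar1 and 8552% for C4b. The ratio of C1qa to C1qb in TPM was 0.96 ± 0.018 (PFC), 1.33 ± 0.027 (microglia) and 1.37 ± 0.067 (co-cultures) (SD over control libraries). The experiments were normalized separately and differ in strain, age and preparation, so these levels are set side by side with no test.

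**Figure D5:**
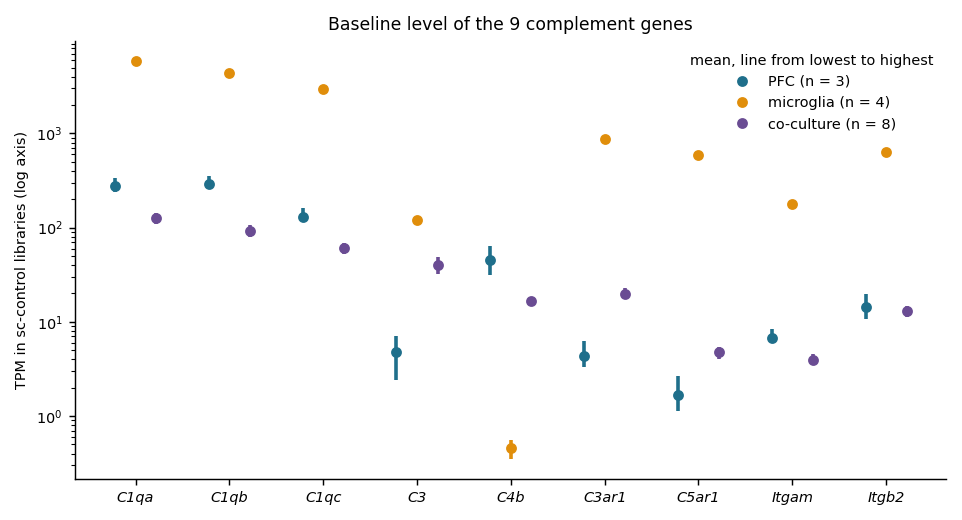
Level in sc-control libraries, in TPM on a log axis, of each of the 9 genes, with 3 PFC, 4 microglia and 8 co-culture libraries; points are means and lines run from the lowest to the highest library. The microglia cultures are highest for every gene but C4b, which is lowest there at 0.455 TPM and highest in the PFC at 45.3 TPM.

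The rest of the pathway was covered by 51 further genes in 6 groups, of which 33 (PFC), 29 (microglia) and 28 (co-cultures) could be tested. None passed the threshold in the PFC or the microglia. In the co-cultures 0 passed upward and 1 downward, beside 0.556% of all genes. This was Csmd1, a neuronal membrane protein of CUB and sushi domains known to inhibit complement, with 76.8, 82.2 and 86 CPM in sc-control and 72.7, 76.5 and 76.9 CPM in anti-miR-99b (log2FC -0.11, SE 0.026, edgeR adjusted p = 0.0361). The groups overlapped at their ends. Its relatives Csmd2 (log2FC -0.12, edgeR adjusted p = 0.15) and Csmd3 (log2FC -0.14, edgeR adjusted p = 0.0622) did not pass. All 7 tested genes of the CUB and sushi group had a log2FC below 0, with a median of -0.09 beside 0.00 over all genes. With the lane as a block Csmd1 no longer passed (edgeR adjusted p = 0.108), nor without treated replicate 3, 10 or 11 or control replicate 2, 4, 5, 6 or 12, with a log2FC of -0.12 to -0.095 over the libraries left out in turn.

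By size of change, the foremost of these genes in the PFC were Itgax, the CD11c chain of complement receptor 4 (log2FC 0.92, SE 0.39, edgeR adjusted p = 0.649), the second C5a receptor C5ar2 (log2FC 0.62, SE 0.20, edgeR adjusted p = 0.571) and the ficolin Fcna (log2FC 0.44, SE 0.33, edgeR adjusted p = 0.748). Itgax had 1.06 to 3.32 CPM in the controls and 2.66 to 4.33 CPM in the treated mice. C5ar2 had 0.782 to 0.916 CPM in the controls and 1.27 to 1.38 CPM in the treated mice, without overlap. In the microglia they were the C1 inhibitor Serping1 (log2FC 0.38, SE 0.31), Cd59b (log2FC -0.37, SE 0.21) and Cd55 (log2FC 0.28, SE 0.22), all under 1 CPM on average in the controls. In the co-cultures they included the scavenger collectin Colec12 (log2FC 0.17, edgeR adjusted p = 0.394) and the membrane regulator Cd59a (log2FC 0.17, edgeR adjusted p = 0.543).

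The components downstream of C3 were low in all 3 experiments. Of the 7 terminal pathway genes, 2 (PFC), 1 (microglia) and 3 (co-cultures) could be tested, and their summed level did not exceed 4.65 CPM in any library. Hc, which encodes C5, the source of the C5ar1 ligand, averaged 0.0621 to 0.471 CPM over the 6 groups. Of the 15 genes of classical and lectin initiation, Mbl1 was at 0 counts in every library.

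Within the co-culture groups the C1q chains varied together. Over the 15 libraries, as deviations from the group means, Pearson's r was 0.95 between C1qa and C1qc, 0.84 between C1qa and C1qb and 0.81 between C1qb and C1qc. With the mean of the chains, r was 0.69 for Itgb2, 0.66 for C3ar1, 0.47 for C3, 0.34 for C5ar1, 0.31 for Itgam and -0.046 for C4b. Of 16190 other genes, the 5 most alike included Ctsz (r = 0.90), Unc93b1 (0.87), Rhoc (0.87) and Hmox1 (0.86), and of these Ctsz (log2FC 0.27, edgeR adjusted p = 0.0013) and Hmox1 (log2FC 0.22, edgeR adjusted p = 0.000992) passed the threshold. These correlations share the depth and the cell content of each library and are given as a description.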

How the data were processed

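RNA-seq was done on PFC tissue, primary microglia and neuron and microglia co-cultures. Per the labels and the study's methods, the authors sequenced polyA-selected TruSeq libraries as single reads, aligned them to mm10 with STAR 2.5.2b, counted them with featureCounts 1.5.1 and deposited raw counts per gene. The annotation release and strand setting are not given in the sources used here. Symbols, exon lengths and transcripts came from GENCODE M21 (48349 of 48709 identifiers had a symbol). Each experiment was fitted alone in R 4.3.3 with edgeR 4.0.16 (filterByExpr, TMM, quasi-likelihood test, no covariate), with p-values adjusted over all genes tested. Each SE was taken from the F statistic and the fold change. Permutation tests were exact, on log2(CPM + 0.5). The microglia threshold is not stated by the study. The alternatives were DESeq2 1.42.0 (Wald test), RLE factors, other filters on low counts, 1 RUVs factor, lane or replicate number as a block, another threshold and each library left out. A covariate of microglia marker level was added after seeing the data. On simulated counts with the real libraries' means, changes of 0.5 on the log2 scale were recovered for 74% of changed genes (PFC), 100% (microglia) and 100% (co-cultures). The changes were planted in genes with a mean count above 100, with 100 genes for each size of change. In the real PFC data 15 genes were called. These shares therefore do not give the power of the real comparisons. Replicate pairs differed beyond counting noise (chi-square per degree of freedom 1.44 to 26.3 over 67 pairs). The 9 genes and all lists were chosen with earlier results of these data known. All 9 genes, listed complement genes past a threshold and the 3 with the largest log2FC per experiment are named, except items that are not reported here; Csmd2 and Csmd3, the markers, Hc and Mbl1 were named after their values were seen.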

Additional observations from a re-analysis of the deposited data

Results flagged for a closer look

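The change of C5ar1 differed between experiments: its log2FC was 0.90 lower in the microglia cultures than in the co-cultures (difference -0.90, SE 0.10, edgeR adjusted p = 2.87e-06, interaction term over all 29 libraries). The fitted fold was 1.89 in the co-cultures, where 7 of 7 treated libraries lay above every control, and 1.00 in the microglia cultures.

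Single libraries stood apart from their group by Dixon's test in 2 of 36 groups of 4 to 8 libraries, where chance gives about 1 in 20. Co-culture anti-miR-99b replicate 10 had 61.2 CPM of C3, and the next library had 46.2. Microglia sc-control replicate 6 had 256 CPM of Itgam, and the next library had 263.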

How the results depend on the processing

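The count of 5 genes past the threshold in the co-cultures was 4 to 5 when each library was left out in turn, 4 with the lane or the replicate number as a block and 5 under the other settings listed in the methods except the marker covariate, and C1qb was the gene lost each time. C1qa, C1qc, C3ar1 and C5ar1 passed in all of these. Of all genes tested, 0.747% passed with the lane as a block and 0.574% with the replicate number. The share was 1.77% under DESeq2, 1.4% with RLE factors and 3.18% with a RUVs factor. It was 0.868% without a filter and 1.48% with at least 10 counts in every library. On leaving out each library it ran from 0.877% to 1.84%. With the marker covariate the count was 0. In the PFC the count of 0 became 2 under DESeq2 (0.536% of all genes), 2 with a RUVs factor (1.81%), 5 without a filter on low counts (1.32%), and 0 to 6 on leaving out each library, the 6 without control replicate 4. In the microglia it became 1 with a RUVs factor (1.06% of all genes), 1 without a filter (0.602%), 1 with the marker covariate (0.93%; C3 in these 3) and 0 to 1 on leaving out each library, again C3, without control replicate 2.

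Among the other complement genes, the count of 1 in the co-cultures was 2 under DESeq2 (1.77% of all genes), 2 without a filter (0.868%), 3 with a RUVs factor (3.18%), 0 with the lane as a block (0.747%), 0 with the marker covariate (0%) and 0 to 3 on leaving out each library (3 without treated replicate 12, where 1.84% of all genes passed). In the PFC the count of 0 became 1 without a filter (Itgax; 1.32%) and 0 to 1 on leaving out each library (Itgax without control replicate 4, where 1.14% of all genes passed). In the microglia it became 1 without a filter, 1 with a RUVs factor and 1 with the marker covariate (Cfp in these 3, with the shares of all genes given for C3), and 0 to 2 on leaving out each library (C2 and Cfp without control replicate 2, where 2.7% passed). The 1 difference between experiments became 2 under DESeq2, the added one being C5ar1 between the co-cultures and the PFC. The causes were not tested.

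The correlation of deviations of same-numbered libraries was 0.0476 and -0.285 in the PFC, -0.0505 and -0.0381 for microglia, and 0.0469, 0.0197, -0.00212 and -0.0145 in the co-cultures. In the PFC, libraries with different numbers gave -0.348 to 0.398. So few pairs cannot decide whether equal replicate numbers pair the libraries. With the replicate number as a block, for which libraries with an unshared number were dropped, PFC control replicate 4 and treated replicate 1 among them, 8 genes passed in the PFC (2.97% of all genes), 1 (C1qc) for microglia (1.65%) and 4 in the co-cultures (0.574%), and of the other complement genes 1 in the PFC and 0 in the co-cultures.

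C1q relative to the markers in the co-cultures was -0.032 with medians in place of means, 0.16 with a shorter list of 10 markers and 0.064 to 0.11 on leaving out each library, against 0.083. In the microglia the log2FC of C5ar1 turned to -0.00035 under DESeq2, -0.00013 with RLE factors and -0.0013 with at least 10 counts in every library, and ran from -0.02 to 0.045 on leaving out each library. In the PFC it ran from -0.032 to 0.66. In the co-cultures Itgb2 turned to 0.0012 without a filter and ran from -0.033 to 0.035, and C4b turned to 0.062 under the replicate block. With the marker covariate the log2FC turned to -0.026 for C3ar1, -0.20 for C5ar1 and -0.0014 for Itgam in the PFC, and to -0.085 for C1qb, -0.086 for Colec12 and -0.28 for Cd59a in the co-cultures.

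Among the 9 genes, depth limits C5ar1 in the PFC (20 to 59 reads) and C4b in the microglia cultures (15 to 36 reads). Other complement genes named above also rest on few reads. In the PFC these include Fcna (7 to 12 reads) and C5ar2 (26 to 42). In the microglia cultures they include Serping1 (8 to 19), Cd59b (16 to 24) and Cd55 (18 to 39).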
